A study of Homo sapiens with 12 samples.

Results

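Mitochondrial ribosomal protein genes were taken as the protein-coding rows of the expression table whose gene symbol starts with MRPL or MRPS followed by a digit. The rule found 77 genes, 48 MRPL genes for the large and 29 MRPS genes for the small subunit, among 17013 genes in all, of which 13611 are protein coding. GENCODE release 44 holds 78 genes that meet the rule, and MRPL53 was not analysed here. All 77 genes entered the test. Symbols are not a perfect guide to position in the ribosome, since MRPS18A and MRPS30 sit in the large subunit of the human mitoribosome (50 and 27 genes with these moved), and MRPS36 is now known as a part of the 2-oxoglutarate dehydrogenase complex.

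The mRNA-seq experiment was done in HCC1806 cells, an established triple-negative breast cancer line, with 12 libraries in 4 groups of 3. Cells received either a control siRNA with no intended target (siNT) or a pool of siRNAs against the kinase MLK4 (siMLK4), and were then given vehicle, which the sample labels name as DMSO, or 1 µM doxorubicin for 24 h. The sample titles mark the groups without and with drug by a time label. The paper's methods call the cells without drug untreated, whereas its results name vehicle. Doxorubicin is an anthracycline that intercalates into DNA and traps topoisomerase II on it. Transient siRNA transfection of 1 cell line is the whole model, the siRNAs were used as a pool, and the p-values measure the spread between libraries of parallel transfections. Libraries held 16759025 to 19302248 reads assigned to genes. The epithelial and basal genes EPCAM, KRT5, KRT14, KRT17 and KRT18 were present in every library (KRT14, the lowest of them, had at least 841.9 normalized reads), whereas the hormone receptor genes ESR1 and PGR had at most 148.5 and 18.46. MAP3K21, the gene for MLK4 (ENSG00000143674), had 553.1, 669.6 and 673.6 normalized reads with siNT and vehicle and 103.2, 94.66 and 88.65 with siMLK4 and vehicle. With doxorubicin it had 757.6, 856.1 and 771.6 reads with siNT and 112.8, 138.4 and 94.35 with siMLK4. The siRNA thus left 15.1% and 14.5% of the control level, without overlap between the groups.

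Mitochondria keep their own ribosome, which translates the few membrane proteins of the respiratory chain that mitochondrial DNA encodes. Its RNAs are transcribed in the organelle, but all of its proteins come from nuclear genes, are made in the cytosol, imported and assembled on the mitochondrial rRNAs with the help of methyltransferases, GTPases and helicases. Some of these proteins descend from the bacterial ribosome and others were added during the evolution of mitochondria. Promoters of nuclear genes for mitochondrial proteins are known for binding sites of ETS factors such as GABP, of NRF1 and of YY1, and MYC binds E-boxes in many of them.

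The promoters of 4 genes are printed because MRPS34, MRPL24 and MRPS6 were among the genes with the largest responses to doxorubicin, and because the promoter of MRPS18C, another responding gene, holds 3 such motifs. Each runs from 250 bases before to 50 bases after the RefSeq start on GRCh38.p14, read in the direction of the gene. Capitals mark CCGGAAG (the ETS core), TGCGCATGC (NRF1) and CACGTG (E-box), searched on both strands, so an ETS core on the other strand reads CTTCCGG.
MRPS34, which fell with doxorubicin, chr16:1773085-1773384, minus strand: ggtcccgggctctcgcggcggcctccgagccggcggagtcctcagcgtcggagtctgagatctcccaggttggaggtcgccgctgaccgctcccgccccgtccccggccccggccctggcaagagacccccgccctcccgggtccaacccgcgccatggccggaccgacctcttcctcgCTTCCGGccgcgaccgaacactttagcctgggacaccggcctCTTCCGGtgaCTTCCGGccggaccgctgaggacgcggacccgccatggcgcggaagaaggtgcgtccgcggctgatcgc
MRPL24, which fell with doxorubicin, chr1:156741039-156741338, minus strand: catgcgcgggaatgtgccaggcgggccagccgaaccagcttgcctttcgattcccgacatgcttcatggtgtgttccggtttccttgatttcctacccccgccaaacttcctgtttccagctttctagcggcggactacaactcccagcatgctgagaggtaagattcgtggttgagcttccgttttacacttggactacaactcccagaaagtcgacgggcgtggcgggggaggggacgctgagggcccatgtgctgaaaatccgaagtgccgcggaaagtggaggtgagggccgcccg
MRPS18C, which rose with doxorubicin, chr4:83455808-83456107, plus strand: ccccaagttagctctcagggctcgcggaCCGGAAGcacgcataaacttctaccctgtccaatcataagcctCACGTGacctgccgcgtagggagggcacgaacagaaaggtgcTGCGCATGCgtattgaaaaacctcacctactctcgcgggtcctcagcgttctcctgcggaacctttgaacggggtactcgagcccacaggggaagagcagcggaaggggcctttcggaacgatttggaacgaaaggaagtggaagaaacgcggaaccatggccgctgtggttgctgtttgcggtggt
MRPS6, which rose with doxorubicin, chr21:34073328-34073627, plus strand: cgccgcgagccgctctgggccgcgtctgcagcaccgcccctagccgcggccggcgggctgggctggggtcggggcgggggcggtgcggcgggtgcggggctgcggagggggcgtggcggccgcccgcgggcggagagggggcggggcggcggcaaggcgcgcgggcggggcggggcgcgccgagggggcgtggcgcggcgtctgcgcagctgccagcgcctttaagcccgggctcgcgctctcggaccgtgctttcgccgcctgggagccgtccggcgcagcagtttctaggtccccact
MRPS34 carries the ETS letters at 3 places, whose first bases lie 71, 29 and 19 bases before the start. MRPS18C carries all 3 motifs, the ETS core 222, the E-box 179 and the NRF1 letters 137 bases before the start. MRPL24 and MRPS6 carry none of these letters in this window, although one fell and the other rose.

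Over the family, the ETS letters CCGGAAG occurred in 28 of the 68 promoters that could be matched to a RefSeq start (41.2%), against 18.4% of all 10994 promoters of the same length that belong to genes of the table. The NRF1 letters were found in 5 of them (7.35%, against 2.56%) and AAGATGGCG, the YY1 letters, in 13 (19.1%, against 3.73%). The E-box was in 6 (8.82%, against 9.96%) and CCAAT in 20 (29.4%, against 36.9%). The ETS and YY1 letters can share the bases AAG, so that 1 place may match both. These are matches of letters and not measured binding.

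Levels were compared between genes as normalized reads per kilobase of transcript. In siNT cells with vehicle the median was 887.8 for the MRPL genes and 639.3 for the MRPS genes, with a range over the family from 11.62 to 4914. MRPL33, a small protein of the large subunit, was highest in each of the 4 groups, with 4914 ± 961 reads per kilobase (SD, n = 3). MRPL20 (3033 ± 927) and MRPL51 (2977 ± 770) followed and did not differ from each other beyond their spread. MRPS24 was lowest in each group, and 3 genes (MRPS24, MRPL2 and MRPS28) had fewer than 10 reads in at least 1 library. Of the 50-base stretches in the transcripts of MRPS24, 90.3% also occur in another annotated gene, as do 50.1% of those of MRPL2 and 47.9% of those of MRPS28, so their counts are uncertain. The same holds for MRPS5 (97.1%), MRPL38 (94.2%), MRPL46 (72.1%) and MRPL12 (67.9%), and to a lesser degree for MRPS25 (40.8%), MRPS6 (30.4%), MRPS17 (29.6%), MRPL19 (21.8%) and MRPL45 (18.6%). The family is made of short genes, with a median transcript length of 1260 bases against 3353 for all protein-coding genes.

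Doxorubicin changed the mitochondrial ribosomal protein genes in both directions. In siNT cells 24 of the 77 genes fell and 13 rose at an adjusted p under 0.05 (limma, Benjamini-Hochberg over all 17013 genes), and 40 did not pass. The same test called 27.7% of all genes lower and 29.6% higher, so the share of the family that fell (31.2%) was near the background and the share that rose (16.9%) was below it. A stricter rule asked for an adjusted p under 0.01 together with a log2 fold change beyond 0.75 either way. By it 11 genes fell and 2 rose, beside 10.6% lower and 12.1% higher of all genes. Log2 fold changes here are differences of the variance-stabilized values, which understate changes of genes with few reads. The median over the family was −0.16, beside 0.00 over all genes and −0.06 over protein-coding genes. By contrast, the 83 cytosolic ribosomal protein genes had a median of −0.59, with 51 lower and 1 higher. In bulk libraries a change in the mix of cells and a change in RNA per cell cannot be told apart. The number of genes called higher was 7 without siNT vehicle replicate 3, 8 without siNT doxorubicin replicate 1 and 19 without siNT vehicle replicate 1. The median ranged from −0.24 to −0.05 when each library was left out in turn. The shares of all genes called in such fits are not given, here or for the later comparisons. Whether these moves were particular to the family was not tested. Scaled to library totals, which moves the median of all genes to 0.18, the split was 26 higher and 18 lower with a median of 0.07, or −0.11 relative to all genes. Under that scaling 39.5% of all genes were higher and 18.2% lower, against 33.8% and 23.4% of the family.

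**Figure D1:**
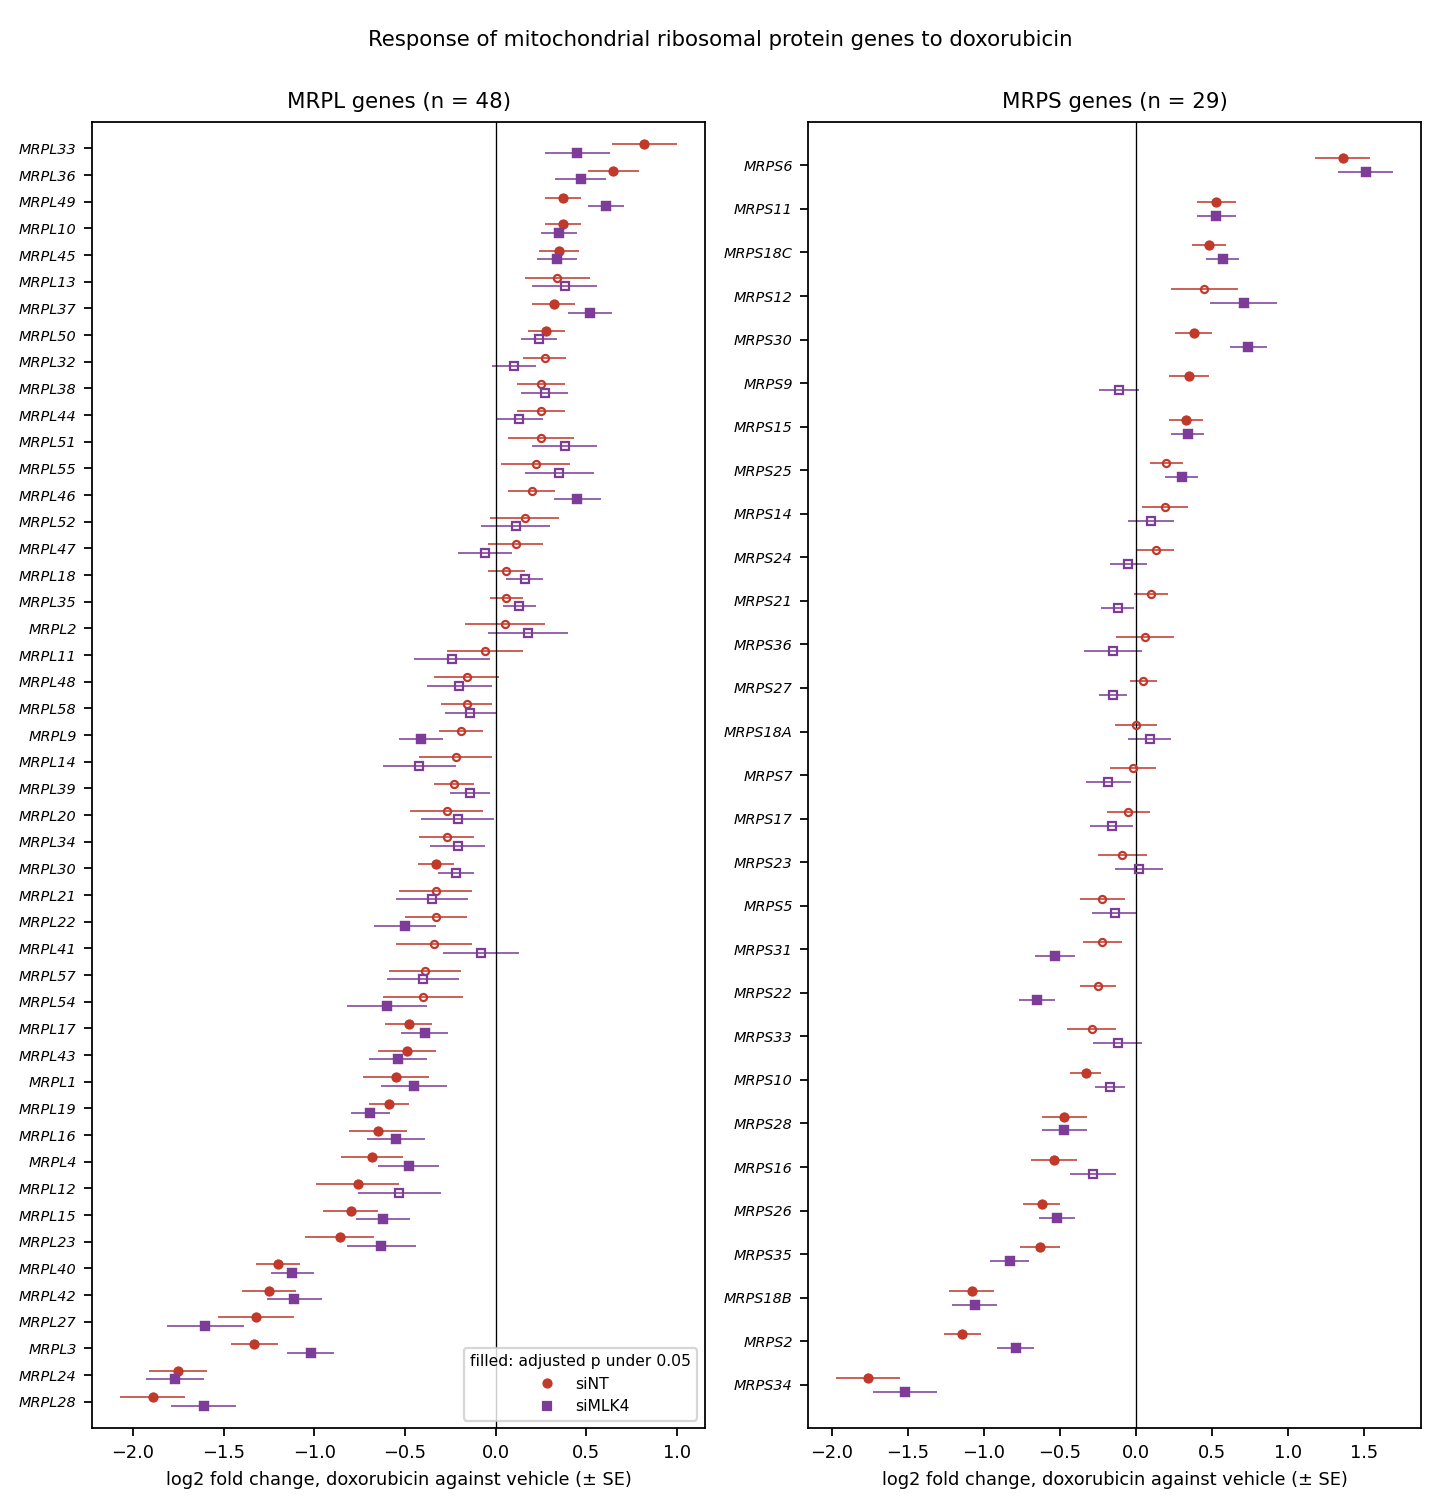
Log2 fold change (variance-stabilized scale, x axis) of each of the 77 genes with doxorubicin against vehicle, MRPL genes in the left panel and MRPS genes in the right one. Circles are siNT and squares siMLK4 cells, filled at an adjusted p under 0.05, with bars for ± SE; each subunit holds genes on both sides of 0, from −1.89 for MRPL28 to 1.36 for MRPS6 in siNT cells.

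Among the genes that fell most, several encode proteins of the large subunit. MRPL28 (ENSG00000086504, chr16:366969-371289 on GRCh38, minus strand) had 1738, 1511 and 1179 normalized reads with siNT and vehicle and 385.7, 299.3 and 388.3 with doxorubicin. It was at 24.2% of the vehicle level, a log2 fold change of −1.89 ± 0.18 (SE, adjusted p = 1.3e-06), and every vehicle library lay above every doxorubicin library. MRPL24 (ENSG00000143314, chr1:156737303-156741590, minus strand), which contacts rRNA near the peptide exit, went from 1267, 1037 and 925 reads to 286.1, 259.6 and 301.1. Its log2 fold change was −1.75 ± 0.16 (adjusted p = 9.2e-07), again without overlap. MRPL3 (ENSG00000114686, chr3:131462212-131502983, minus strand), whose bacterial counterpart reaches towards the peptidyl transferase centre, had 4115, 4114 and 4038 reads with vehicle and 1413, 1511 and 1916 with doxorubicin. It fell by 1.33 on the log2 scale (SE 0.13, adjusted p = 1.5e-06). These 3 genes are of the class with bacterial counterparts. In that class of 30 large subunit genes 13 fell and 3 rose (43.3% and 10.0%, median −0.30), beside 27.7% lower and 29.6% higher of all genes. Among 20 large subunit genes specific to mitochondria 3 fell (15.0%) and 5 rose (median 0.08). The difference between the classes was not tested.

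MRPS34 (ENSG00000074071, chr16:1771890-1773150, minus strand), a protein of the small subunit specific to mitochondria, had 2515, 1891 and 1587 reads with vehicle and 625.7, 415.3 and 614.4 with doxorubicin in siNT cells. This was 27.6% of the vehicle level (log2 fold change −1.76 ± 0.21, adjusted p = 8.8e-06), and the groups were apart. Its promoter, with 3 ETS cores, is printed above. MRPS18B was at 46.1% of vehicle (−1.08, adjusted p = 3e-05). It is 1 of 3 human relatives of the bacterial S18 protein, and the relatives differed. MRPS18C, printed above for its 3 motifs, had 756.2, 831.6 and 708.4 reads with vehicle and 1113, 1008 and 1144 with doxorubicin, and it rose (0.48 ± 0.11, adjusted p = 0.0015). MRPS18A had a log2 fold change of 0.00 (adjusted p = 0.99). In the nomenclature used for the classes MRPS18C stands for S18, and MRPS18B and MRPS18A, though related to it in sequence, are counted as specific to mitochondria, the former in the small and the latter in the large subunit. Among 10 small subunit genes specific to mitochondria, MRPS36 left aside, 4 fell, MRPS18B among them, and 0 rose in limma (median −0.27). Among the 16 with bacterial counterparts 4 fell and 5 rose (31.2% higher, median 0.11), near the 27.7% and 29.6% of all genes.

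MRPS6 (ENSG00000243927, chr21:34073224-34143034, plus strand), a small subunit protein with a bacterial counterpart, rose most in the family. It had 1179, 840.9 and 762.3 reads with vehicle and 2719, 2276 and 2282 with doxorubicin in siNT cells, a 2.62-fold difference (log2 fold change 1.36 ± 0.18, adjusted p = 2.3e-05). All 3 doxorubicin libraries were higher than all vehicle libraries. The MRPS6 locus overlaps SLC5A3, a myo-inositol transporter gene, and 30.4% of the 50-base stretches of MRPS6 occur in other genes that include SLC5A3. SLC5A3 itself had a log2 fold change of 0.36 (adjusted p = 0.21). MRPL33 (ENSG00000243147, chr2:27771717-27988087, plus strand) rose from 3058, 2259 and 2172 reads to 4704, 3989 and 4513 (0.82 ± 0.18, adjusted p = 0.0015). Its annotated exons overlap BABAM2 over 21.1% of their bases, and BABAM2 fell (−1.34, adjusted p = 3.8e-07). MRPL36, a very small large subunit protein, was at 161% of vehicle (0.65, adjusted p = 0.00098). MRPS11, which lies in the platform of the small subunit, went from 439.2, 522.2 and 494 reads to 786.3, 577.2 and 821.2 (0.53, adjusted p = 0.0029).

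Of the members with a known role, MRPL10 rose (0.37, adjusted p = 0.0067) while MRPL12, which binds MRPL10 in the stalk that receives translation factors, fell (−0.76, adjusted p = 0.012). The MRPL12 call ended without siNT vehicle replicate 1 (adjusted p = 0.061), and 67.9% of its 50-base stretches occur in another gene. MRPL45, which anchors the ribosome to the inner membrane at the peptide exit, rose by 0.35 (adjusted p = 0.014, or 0.062 without siNT vehicle replicate 3). MRPS16, a small subunit protein with a bacterial counterpart, fell (−0.54, adjusted p = 0.0063, or 0.074 with library totals). MRPL11, also of the stalk base, had −0.06 and MRPL32, whose processing by an inner membrane protease is needed for assembly, 0.27. MRPL41, MRPL44 and MRPL58 (a peptide release factor built into the ribosome) had −0.34, 0.25 and −0.16. MRPS7 and MRPS22 of the small subunit had −0.02 and −0.25. None of these 7 genes passed an adjusted p of 0.05. MRPS30, of the large subunit, rose (0.38, adjusted p = 0.017), but without siNT vehicle replicate 2, siNT vehicle replicate 3 or siNT doxorubicin replicate 1 its adjusted p was 0.052, 0.079 or 0.082. MRPS12, a decoding centre protein, had 0.45 (adjusted p = 0.095).

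In siMLK4 cells doxorubicin called similar numbers of the genes. Here 25 genes fell and 14 rose, beside 27.7% lower and 30.2% higher of all genes, and by the stricter rule 10 fell and 1 rose, beside 10.6% and 12.6%. The median was −0.15, against 0.02 for all genes and −0.72 for the cytosolic ribosomal protein genes, of which 59 fell and 1 rose. The number of genes called higher was 9 without siMLK4 vehicle replicate 1, and the median was −0.26 without that library and −0.05 without siMLK4 vehicle replicate 3. Scaled to library totals, 22 genes were higher and 18 lower (median 0.01, or −0.16 relative to all genes), beside 38.7% and 20.3% of all genes. The 2 doxorubicin comparisons share no library. Across the 77 genes their log2 fold changes had a Pearson r of 0.95 and a Spearman rho of 0.94, and 70 had the same sign. Across all genes both coefficients were 0.89. Genes are not independent replicates and no test was made. By the stricter rule, the 9 genes MRPL3, MRPL24, MRPL27, MRPL28, MRPL40, MRPL42, MRPS2, MRPS18B and MRPS34 fell in both comparisons, which is 81.8% of those called in siNT and 90.0% of those called in siMLK4 cells. For all genes lower by that rule the shares were 71.8% and 71.6%. At an adjusted p under 0.05, 20 genes fell in both (83.3% and 80.0%, beside 77.7% each for all genes) and 11 rose in both (84.6% and 78.6%, beside 81.4% and 79.6%).

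MRPL24 was again among the lowest, with 638.2, 827 and 982.7 reads with vehicle and 173.8, 186.8 and 247.7 with doxorubicin (24.8% of vehicle, log2 fold change −1.77 ± 0.16, adjusted p = 9e-07). MRPL28 had 1186, 1398 and 1557 reads with vehicle and 401.9, 319.4 and 547.1 with doxorubicin (−1.61 ± 0.18, adjusted p = 5.1e-06). MRPL27, a protein close to the peptidyl transferase centre, went from 737.4, 955.6 and 1272 reads to 281.5, 226 and 361.1 (−1.60 ± 0.21, adjusted p = 1.8e-05). In each of these 3 genes the doxorubicin libraries all lay under the vehicle libraries. MRPS34 fell to 32.7% of vehicle (−1.52, adjusted p = 3e-05). MRPS6 had 441.8, 506.2 and 752.5 reads with vehicle and 1680, 1513 and 1827 with doxorubicin, a 2.95-fold difference (1.51 ± 0.18, adjusted p = 9.3e-06). MRPS30 had 1275, 1531 and 1530 reads with vehicle and 2449, 2485 and 2413 with doxorubicin (0.74 ± 0.12, adjusted p = 0.00016), with the groups apart. MRPL49, a large subunit protein specific to mitochondria, rose to 154% of vehicle (0.61, adjusted p = 0.00013). MRPS12 rose by 0.71 (adjusted p = 0.012), a call that ended without siMLK4 vehicle replicate 1 (adjusted p = 0.059). MRPL33 had 0.45 (adjusted p = 0.046). Leaving out any single library other than siNT vehicle replicate 1 or 3, siMLK4 vehicle replicate 3 or siMLK4 doxorubicin replicate 2 ended this call (adjusted p of 0.053 to 0.18), as did a fit of only the groups compared (0.061) or one restricted to genes whose lowest library had 10 reads or more (0.051). A vehicle library (3727 reads) lay above 2 of the 3 doxorubicin libraries (3640 and 3318 reads). MRPS18B (−1.06) and MRPS18C (0.57) moved in opposite directions here too, and MRPS18A had 0.09 (adjusted p = 0.61).

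**Figure D2:**
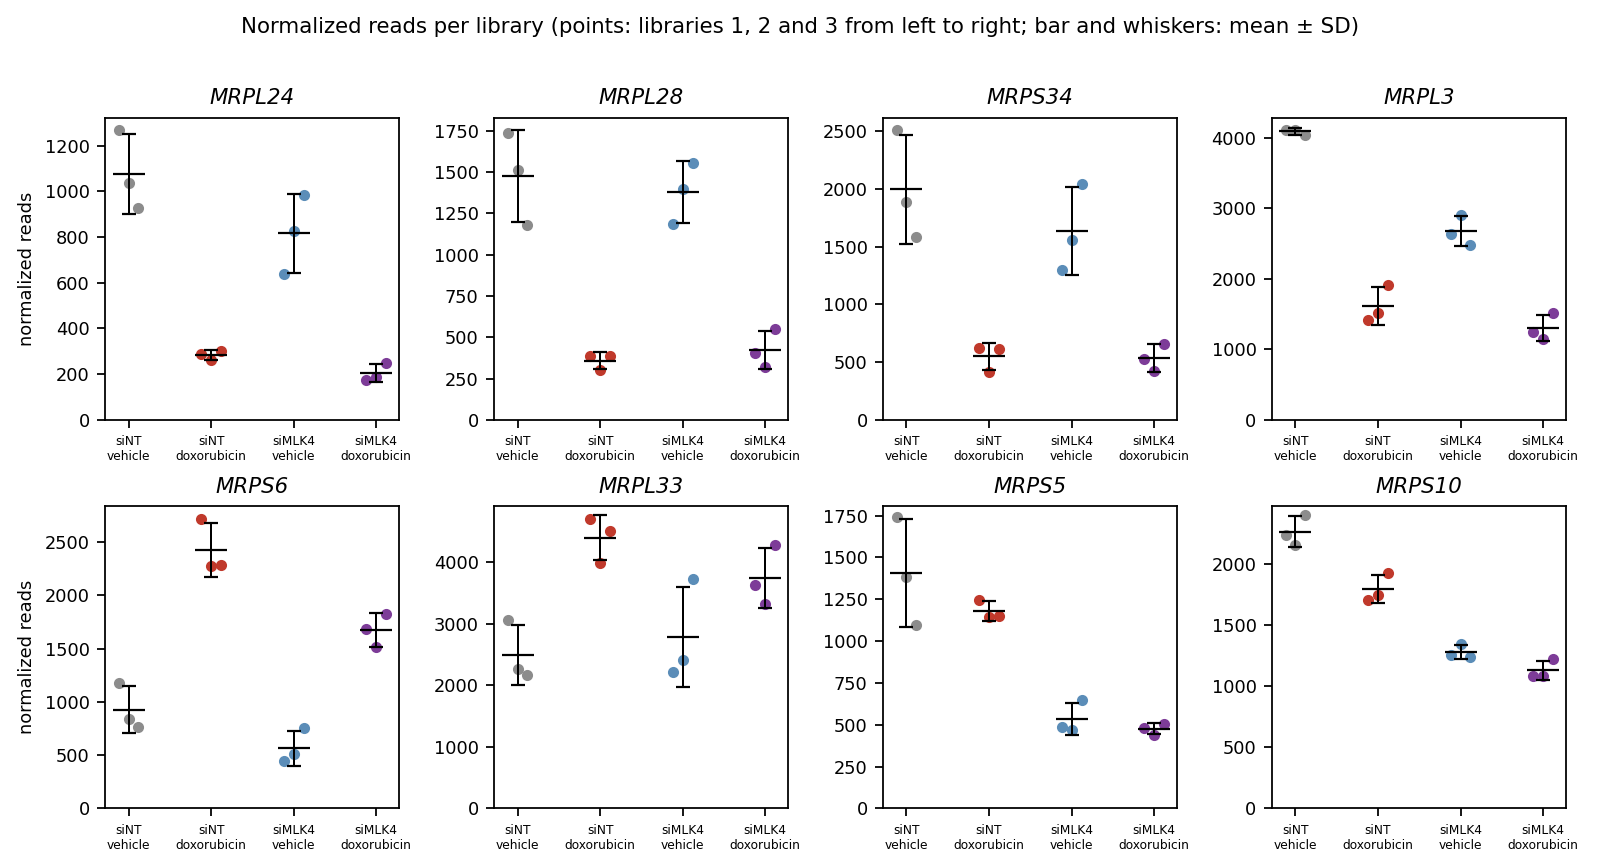
Normalized reads (y axis, from 0) of 8 named genes in the 4 groups, with a point for each library and a bar with whiskers for the mean ± SD of 3 libraries. MRPL24, MRPL28, MRPS34 and MRPL3 are low in all 6 doxorubicin libraries, MRPS6 is high in them, and MRPS5 and MRPS10 are low in the 6 siMLK4 libraries.

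Among the 28 genes with the ETS letters in the promoter, 11 fell and 2 rose with doxorubicin in siNT cells (39.3% and 7.14%, median −0.26), and among the 40 without them 10 fell and 10 rose (median −0.03). Of all genes 27.7% fell and 29.6% rose. In siMLK4 cells the counts were 11 and 3 with the letters (39.3% and 10.7%, median −0.21) and 11 and 10 without (27.5% lower, median −0.14), beside 27.7% and 30.2% of all genes. The 6 genes with an E-box were MRPL22, MRPL36, MRPL37, MRPL45, MRPL49 and MRPS18C, and 5 of them rose in siNT cells while MRPL22 did not pass (−0.33, adjusted p = 0.1). In siMLK4 cells the same 5 genes rose and MRPL22 fell (−0.50, adjusted p = 0.019). Of these the MRPL45 call ended without siMLK4 vehicle replicate 1 (adjusted p = 0.076) or siMLK4 doxorubicin replicate 3 (adjusted p = 0.058). For the other letters searched, 3 rose and 3 fell of the 13 genes with the YY1 letters in siNT cells (median 0.16) and as many in siMLK4 cells (median 0.10). With CCAAT 6 rose and 4 fell of 20 (median 0.10), and 5 rose and 4 fell in siMLK4 cells (median 0.01). With the NRF1 letters 1 rose and 2 fell of 5 (median −0.33), and 1 rose and 3 fell in siMLK4 cells (median −0.39). All these counts describe the promoters and were not tested. A start of another gene on the opposite strand lay within 1000 bases of the start of 27 of the 77 genes (35.1%, against 17.1% of protein-coding genes), and in 25 cases the partner was in the table. In siNT cells 11 of the 25 members were called with doxorubicin, and the partner was called in the same direction in 1 case and in the opposite direction in 2 (9.09% and 18.2% of the 11). Among all 2131 protein-coding genes with such a partner among those measured, 1196 were called, with 31.6% of their partners in the same and 24.0% in the opposite direction. In siMLK4 cells 13 of the 25 were called, with 3 partners in the same and 4 in the opposite direction (23.1% and 30.8%, beside 31.5% and 24.4% of the 1227 called). A pair is counted from each end where both genes qualify, and MRPL46, whose counts are uncertain, and MRPS11, which are partners of each other, make 2 of these 3 cases. For MRPL27 in siNT cells the partner EME1, an endonuclease subunit, had 0.57 where MRPL27 had −1.32. For MRPS18C the partner HELQ, a DNA helicase, had 0.86 where MRPS18C had 0.48.

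Without drug, single members were lower with siMLK4 than with siNT. In vehicle 9 of 77 genes (11.7%) were lower with siMLK4 and 0 higher (limma, adjusted p under 0.05). Of all genes 13.0% were lower and 12.7% higher, so the share of the family that was lower was near the background. At an unadjusted p under 0.05, 16 were lower and 0 higher, beside 18.1% and 19.0% of all genes, and limma-voom on the recovered reads gave 9 and 0. By the stricter rule 2 fell and 0 rose in limma, beside 3.14% lower and 2.51% higher of all genes. The median was −0.14, against 0.01 over all genes and −0.02 over the cytosolic ribosomal protein genes. Of the 77 values 63 were negative, beside 8229 of 17013 over all genes. The median was −0.02 without siMLK4 vehicle replicate 1 and −0.27 without siNT vehicle replicate 3. With library totals 5 genes were lower and 1 higher and the median was −0.01, or −0.12 relative to all genes, beside 8.16% lower and 18.8% higher of all genes. MRPL genes gave 3 lower of 48 (median −0.13) and MRPS genes 6 lower of 29 (median −0.15).

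MRPS5 (ENSG00000144029, chr2:95085369-95122006, minus strand), a small subunit protein with a bacterial counterpart, had the largest difference. It had 1740, 1383 and 1095 reads with siNT and 486.9, 469.3 and 645.4 with siMLK4 in vehicle, 38.0% of the control (log2 fold change −1.30 ± 0.15, adjusted p = 3.7e-05). Every siMLK4 library was lower than every siNT library. Nearly all of its 50-base stretches (97.1%) also occur in ENSG00000289685, so its counts are uncertain. MRPS10 (ENSG00000048544, chr6:42206807-42217861, minus strand), also with a bacterial counterpart, had 2237, 2153 and 2404 reads with siNT and 1253, 1343 and 1242 with siMLK4 (−0.80 ± 0.10, adjusted p = 5.2e-05), again without overlap. MRPL3 had 2636, 2903 and 2485 reads with siMLK4 against the 4115, 4114 and 4038 with siNT (−0.61 ± 0.13, adjusted p = 0.0034). MRPS6 was at 61.1% (−0.67, adjusted p = 0.014). That call ended without siNT vehicle replicate 1, siMLK4 vehicle replicate 1 or siMLK4 vehicle replicate 2 (adjusted p = 0.056, 0.058 and 0.054), and in a fit of only the groups compared (0.081). MRPS35, a small subunit protein specific to mitochondria, was at 65.3% (−0.60, adjusted p = 0.0044). MRPS30 was lower by the test (−0.36, adjusted p = 0.045), a call that ended with the replicate block (adjusted p = 0.055), with only the groups compared (0.13), with library totals (0.2) and, with an adjusted p of 0.05 to 0.17, when any library but siNT vehicle replicate 3, siNT doxorubicin replicate 1 or siMLK4 vehicle replicate 3 was left out.

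An siRNA can also act on transcripts that match its seed (bases 2 to 8), so annotated 3′UTRs were searched for the 7 letters that pair with each of the 4 siRNA seeds. A site was present in 20 of the 77 genes (26%), against 44.3% of 13583 protein-coding genes. These shares were not matched for length, and transcripts of the family are short (median 1260 bases, against 3353 for protein-coding genes). A site is shown for MRPS5 because it had the largest difference between the siRNAs. The seed site of siRNA 3 is in capitals, at base 100 of a 3′UTR of 1988 bases.
MRPS5, seed site: tttgttttGAGGGAAgtttaatc
Of the 20 genes with a site 3 were lower in vehicle (MRPL35, MRPL42 and MRPS5), and of the 57 without a site 6 were (MRPL3, MRPS6, MRPS10, MRPS27, MRPS30 and MRPS35), where 13.0% of all genes were lower. The part of seed matches in these differences was not tested.

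With doxorubicin present, 11 of 77 genes were lower with siMLK4 and 1 was higher, beside 12.1% lower and 12.7% higher of all genes. By the stricter rule 2 fell and 0 rose in limma, beside 2.93% and 2.66%. At an unadjusted p under 0.05, 17 were lower and 3 higher, beside 17.6% and 19.5% of all genes. The median was −0.11, against 0.02 over all genes, with 4 lower of 48 MRPL genes and 7 lower of 29 MRPS genes. The count of lower genes was 6 without siNT doxorubicin replicate 3, siMLK4 doxorubicin replicate 1 or siMLK4 doxorubicin replicate 2, and 1 gene passed the stricter rule without the last of these. Scaled to library totals the split was 8 lower and 4 higher (median −0.03, or −0.11 relative to all genes), beside 9.53% and 17.4% of all genes. MRPS5 was again lowest, with 1247, 1143 and 1148 reads with siNT and 483.3, 439.4 and 503.5 with siMLK4 (−1.22 ± 0.15, adjusted p = 7.8e-05), without overlap. MRPS35 had 2385, 2601 and 2702 reads with siNT and 1435, 1212 and 1726 with siMLK4 (−0.80 ± 0.13, adjusted p = 0.00061). MRPS22, which is specific to mitochondria and mutated in an inherited deficiency of mitochondrial translation, had 868.4, 868.3 and 836.5 reads with siNT and 482.5, 439.4 and 599.7 with siMLK4 (−0.71 ± 0.12, adjusted p = 0.00077). MRPS10 was at 63.0% (−0.64, adjusted p = 0.00034). In all 4 genes the siMLK4 libraries lay under the siNT libraries. MRPL49 was higher (0.31, adjusted p = 0.034), a call that ended without replicate 2 or 3 of siNT or replicate 1 or 2 of siMLK4, all with doxorubicin (adjusted p of 0.1 to 0.14). MRPS6 passed narrowly (−0.52, adjusted p = 0.047) and did not pass with the replicate block (adjusted p = 0.059), with TMM scaling (0.054), with library totals (0.075), without the variance trend (0.05) or on the scale of log2 of normalized reads plus 1 (0.057). It also did not pass (0.055 to 0.15) when any library other than replicates 1 and 3 of the vehicle groups was left out.

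**Figure D3:**
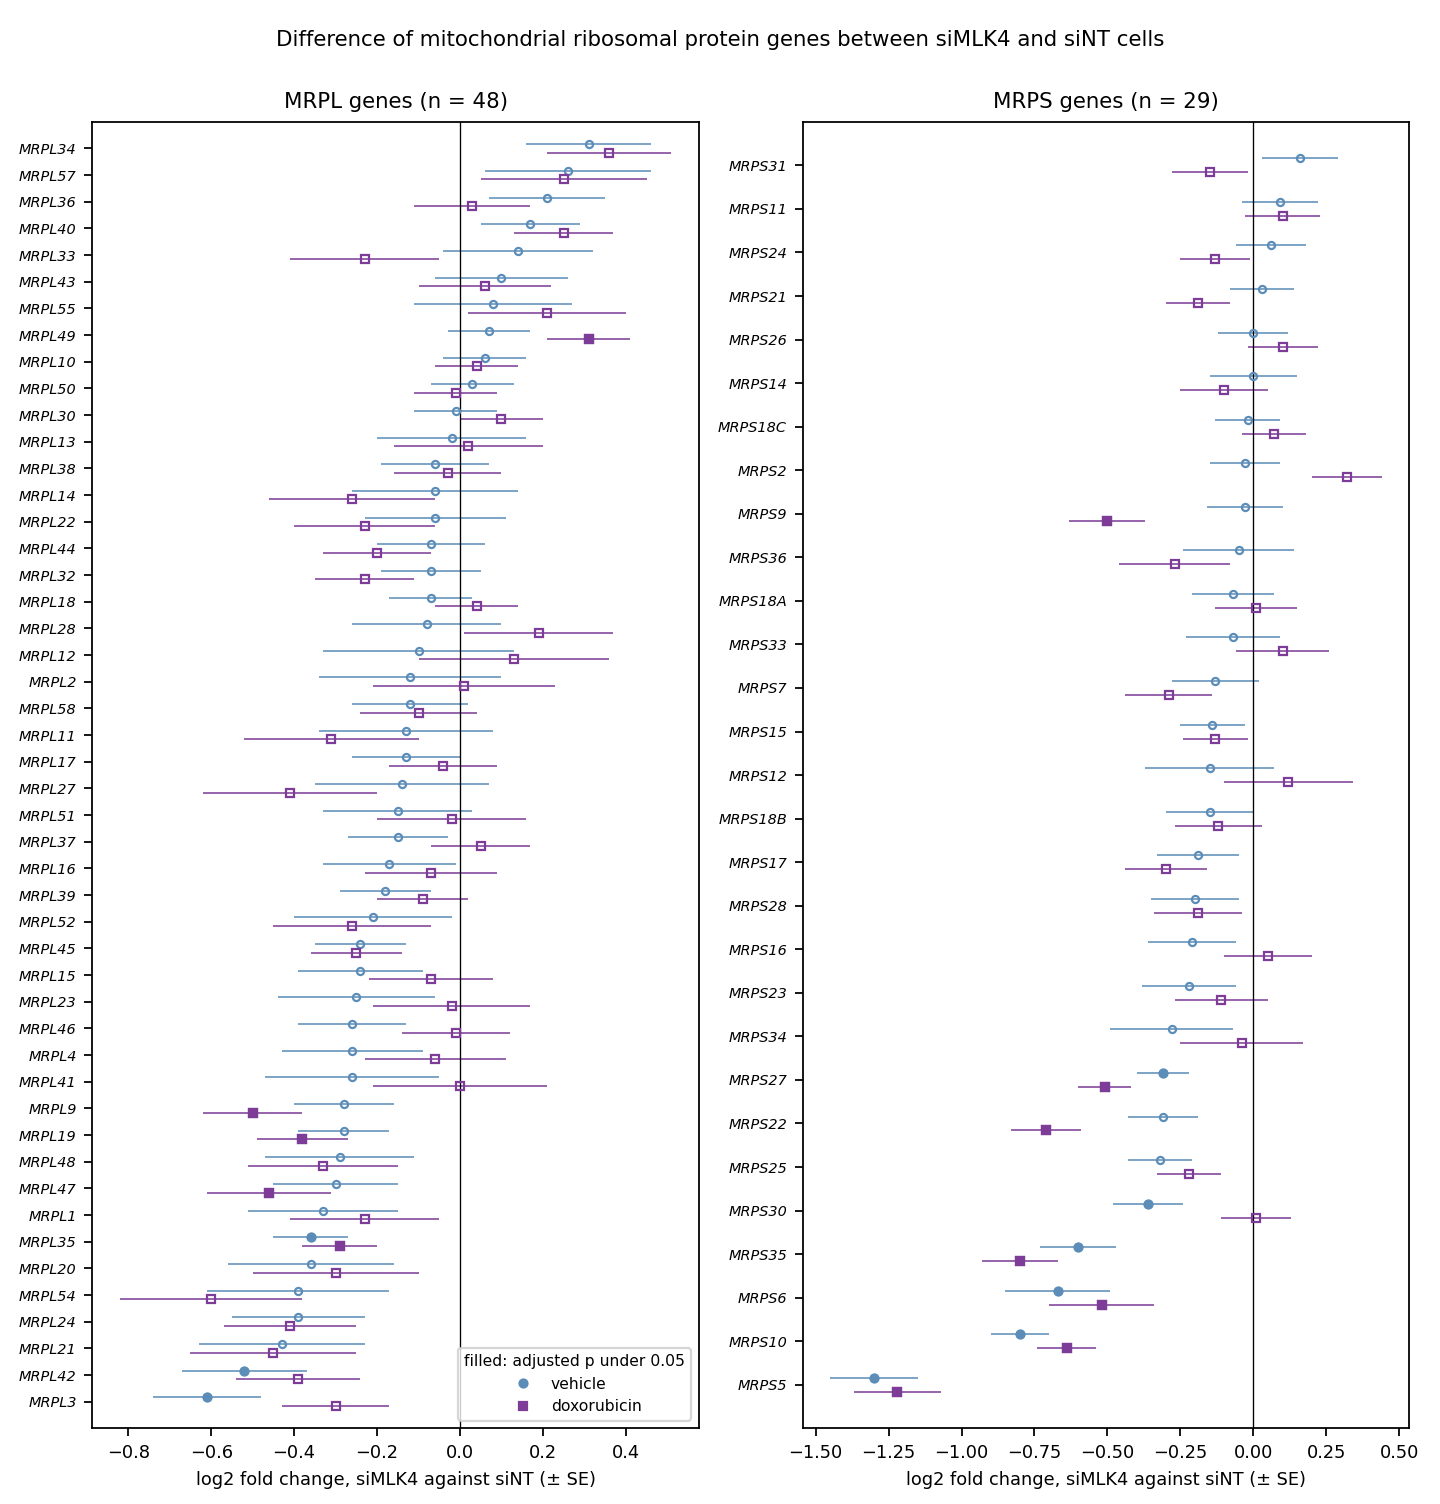
Log2 fold change (variance-stabilized scale, x axis) of each of the 77 genes with siMLK4 against siNT, MRPL genes in the left panel and MRPS genes in the right one, with circles for vehicle and squares for doxorubicin, filled at an adjusted p under 0.05, and bars for ± SE. MRPS5 is lowest in both comparisons, at −1.30 and −1.22.

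The siRNA comparisons in vehicle and with doxorubicin share no library. Across the 77 genes their log2 fold changes had a Pearson r of 0.76 and a Spearman rho of 0.65 (0.69 and 0.65 across all genes), and 56 had the same sign. Genes lower in both at an adjusted p under 0.05 were MRPL35, MRPS5, MRPS6, MRPS10, MRPS27 and MRPS35, which is 66.7% of those called in vehicle and 54.5% of those called with doxorubicin. For all genes called lower the shares were 58.4% and 62.8%. As a description over the 77 genes, the log2 fold change with doxorubicin present had a Pearson r of −0.45 with the log2 length of the gene and −0.46 with its number of exons. In vehicle these were −0.25 and −0.44. For doxorubicin against vehicle the r with gene length was 0.20 in siNT and 0.10 in siMLK4 cells. The points share all libraries.

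Whether the siRNA altered the response to doxorubicin was tested as an interaction. None of the 77 genes passed an adjusted p of 0.05 in limma (0 higher and 0 lower), where 204 of 17013 genes (1.20%) did in either direction. Limma-voom also called 0. At an unadjusted p under 0.05 there were 2 genes, MRPS9 (−0.47, adjusted p = 0.26) and MRPS22 (−0.40, adjusted p = 0.29), named after their values were seen, where 14.5% of all genes had such a p. The median was 0.03 over the family and 0.01 over all genes. In simulated data of this size the test found 50% of interactions of 1 log2 unit and 90% of those of 2, so that smaller differences may have been missed.

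The medians of the MRPL and MRPS genes were compared in each contrast. With doxorubicin the MRPL minus MRPS difference was −0.21 in siNT cells (−0.23 against −0.02) and −0.07 in siMLK4 cells (−0.21 against −0.14). With MRPS18A and MRPS30 moved to the large subunit the difference in siNT cells was −0.16. For siMLK4 against siNT it was 0.01 in vehicle and 0.06 with doxorubicin. Such differences were not tested, and without siNT vehicle replicate 1 the siNT value was −0.13. The siMLK4 value was −0.15 without siMLK4 vehicle replicate 1 and −0.01 without siMLK4 vehicle replicate 3. Those of siMLK4 against siNT ranged from −0.02 to 0.04 in vehicle and from −0.01 to 0.10 with doxorubicin when 1 library was left out.

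Summed over the family, the share of all reads was compared library by library. It was 0.528, 0.470 and 0.413% with siNT and vehicle and 0.537, 0.470 and 0.506% with siNT and doxorubicin, means of 0.470 ± 0.0575% and 0.504 ± 0.0335% (SD, n = 3). In siMLK4 cells it was 0.394, 0.453 and 0.503% with vehicle and 0.482, 0.444 and 0.511% with doxorubicin (0.450 ± 0.0543% and 0.479 ± 0.0337%). The groups overlapped in every comparison. The cytosolic ribosomal protein genes took 6.33 ± 1.08% with siNT and vehicle and 4.76 ± 0.502% with siNT and doxorubicin, and 7.07 ± 2.17% and 4.64 ± 0.368% with siMLK4. Summed as normalized reads per length, the mitochondrial ribosomal protein genes with doxorubicin were at 0.956 of vehicle in siNT and at 0.960 in siMLK4 cells.

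Libraries of 1 group differed in the family as a whole, and this went with the length of genes. In siNT vehicle replicate 1, 68 of the 77 genes lay above their group mean, with a median deviation of 0.19 (log2), while in replicate 3 of that group 10 did (−0.16). In siMLK4 vehicle replicate 1 the median deviation was −0.19, and in replicate 3 it was 0.19. For a slope on length, each library's values were taken as differences from the gene's mean over all libraries, not from the group mean. The slope on log2 exonic length, over protein-coding genes with a mean above 50 reads, was −0.092 and 0.104 in the siNT pair. In the siMLK4 pair it was 0.117 and −0.114, so that libraries with more reads on short genes had more on this family. With doxorubicin the slopes ranged from −0.074 to 0.049. This slope was then used as a covariate, an alternative chosen after seeing the data. Since it was taken against means over all libraries, it can also carry differences between the groups. In that fit 40 genes fell and 17 rose with doxorubicin in siNT cells (51.9% and 22.1%). Of all genes 34.0% fell and 34.3% rose, so the share that fell was above the background in that fit. In siMLK4 cells 36 fell and 18 rose (46.8% and 23.4%, beside 33.4% and 35.5%). With siMLK4 in vehicle 27 were lower and 1 higher (35.1% and 1.3%, beside 20.6% and 19.9%). With siMLK4 and doxorubicin 27 were lower and 4 higher (35.1% and 5.19%, beside 19.5% and 20.7%). What set the slope was not tested.

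**Figure D4:**
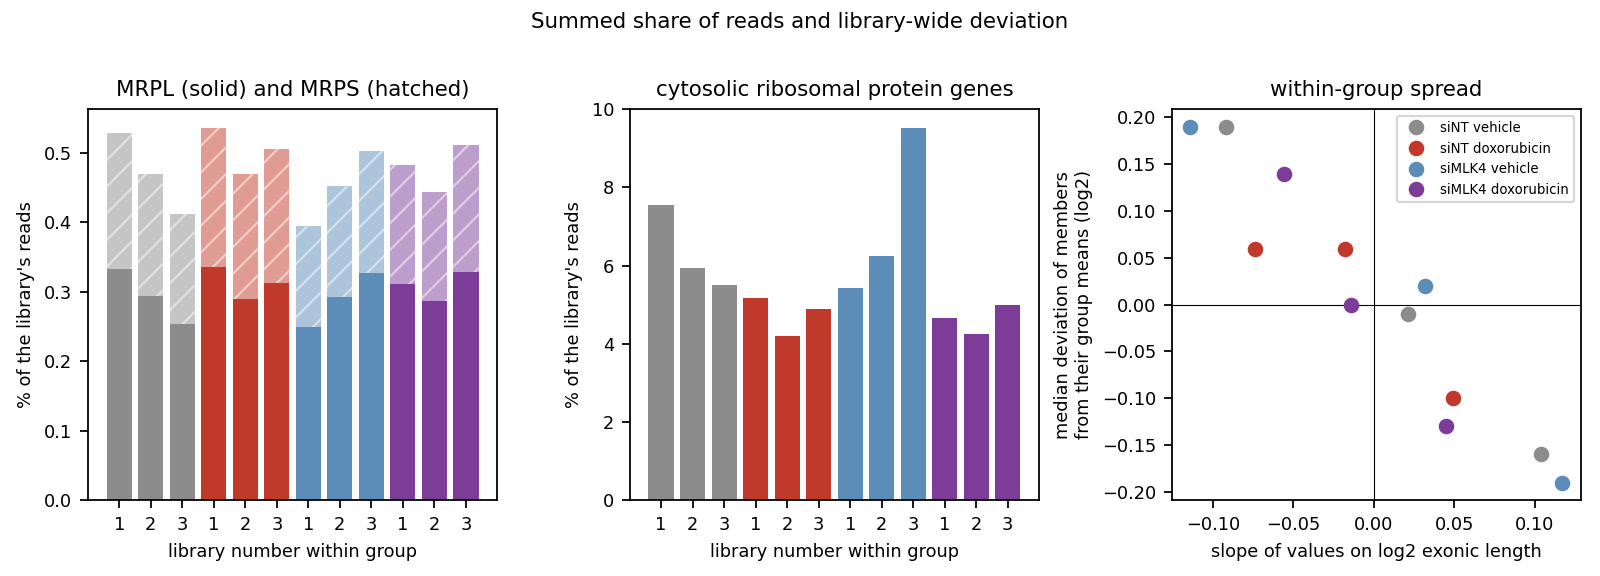
Left and middle, share of each library's reads (percent, bars from 0) on the MRPL and MRPS genes and on the cytosolic ribosomal protein genes; right, median deviation of the 77 genes from their group means (log2) against the slope of the library's values on log2 exonic length, with a point for each of the 12 libraries. The shares of the 77 genes overlap between the groups, from 0.394 to 0.537%, and the points on the right run from upper left to lower right.

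Beside the ribosomal proteins, 102 genes in 6 lists of the same pathway were read from the same fit. With doxorubicin 28 of them fell and 15 rose in siNT cells, and 30 fell and 15 rose in siMLK4 cells. The shares that fell (27.5% and 29.4%) were near those of all genes (27.7% in both), and the share that rose (14.7% in both) was below theirs (29.6% and 30.2%). Scaled to library totals, 30 rose and 16 fell in siNT cells, beside 39.5% and 18.2% of all genes. In siMLK4 cells that scaling gave 25 higher and 16 lower, beside 38.7% and 20.3%. With siMLK4 21 were lower and 3 higher in vehicle (20.6% and 2.94%, beside 13.0% and 12.7% of all genes). The number lower in vehicle was 12 with library totals (11.8%, beside 8.16% of all genes) and also 12 in a fit of only the groups compared. It ran from 13 to 21 when 1 library was left out. With siMLK4 and doxorubicin 17 were lower and 2 higher (16.7% and 1.96%, beside 12.1% and 12.7%). In the interaction 0 passed in limma in either direction, with 8 at an unadjusted p under 0.05 (7.84%, beside 14.5% of all genes). Of the 5 mitoribosomal proteins with another symbol, DAP3, a GTP-binding small subunit protein, had 4394, 3675 and 3419 reads with siNT and vehicle and 2177, 2112 and 2109 with siNT and doxorubicin (−0.82 ± 0.11, adjusted p = 2.2e-05). It fell by 1.00 in siMLK4 cells (adjusted p = 4e-06) and was also lower with siMLK4 in doxorubicin (−0.51, adjusted p = 0.0036). In vehicle the difference of −0.33 (adjusted p = 0.038) did not pass with the replicate block (adjusted p = 0.054), with only the groups compared (0.13) or with library totals (0.21). Nor did it (0.05 to 0.14) without replicate 1 or 2 of either siNT group or replicate 1 of either siMLK4 group. PTCD3, another small subunit protein, was lower with siMLK4 in doxorubicin (−0.32, adjusted p = 0.022), but not after leaving out siNT doxorubicin replicate 3 or either of siMLK4 doxorubicin replicates 1 and 2 (0.054 to 0.098), nor with library totals (0.069).

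Of 32 genes of rRNA modification and mitoribosome assembly, 12 fell and 6 rose with doxorubicin in siNT cells and 14 fell and 5 rose in siMLK4 cells. These are 37.5% and 43.8% lower and 18.8% and 15.6% higher, beside the 27.7% of all genes lower and the 29.6% and 30.2% higher given above. MTERF3, which binds the rRNA of the large subunit during assembly, had 603.6, 509.7 and 489.5 reads with siNT and vehicle and 197.5, 181.2 and 170.3 with doxorubicin (−1.32 ± 0.12, adjusted p = 8.6e-07). It fell by 1.30 in siMLK4 cells (adjusted p = 1.1e-06). METTL15, an rRNA methyltransferase of the small subunit, fell by 1.07 (adjusted p = 1.7e-05), and ERAL1, the chaperone of the small rRNA, rose by 0.36 and 0.51 (adjusted p = 0.0043 and 0.00033). MPV17L2, a membrane protein that takes part in assembly, rose by 1.10 in siMLK4 cells (adjusted p = 5.8e-05). With siMLK4 4 of the 32 genes were lower in vehicle and 5 with doxorubicin (12.5% and 15.6%, beside 13.0% and 12.1% of all genes), and 0 were higher in limma (0 and 2 at an unadjusted p under 0.05). Of 21 translation factors and related genes, 6 fell and 4 rose in siNT cells and 6 fell and 2 rose in siMLK4 cells (28.6% lower in both, 19.0% and 9.52% higher). MTRF1L, a release factor, rose by 0.68 and 0.92 (adjusted p = 0.00028 and 2.2e-05). MTRES1, which acts on stalled mitochondrial ribosomes, rose by 0.77 and 0.49 (adjusted p = 9.2e-05 and 0.0031). GFM2, a ribosome recycling factor, rose in siNT cells (0.58, adjusted p = 0.00046). TUFM, the elongation factor that brings tRNA, had −0.02 and 0.17 and did not pass.

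With siMLK4, 6 translation factors or related genes were lower and 0 higher in limma both in vehicle and with doxorubicin. That is 28.6% of the 21 genes lower each time, beside 13.0% and 12.1% of all genes lower and 12.7% higher in both, and at an unadjusted p under 0.05 the counts were 7 and 0 in each. LRPPRC, which stabilizes mitochondrial mRNAs, had 14914, 14000 and 14370 reads with siNT and 5160, 5463 and 4494 with siMLK4 in vehicle (−1.51 ± 0.12, adjusted p = 1.4e-06), with the groups far apart. With doxorubicin it was at 37.2% of siNT (−1.42, adjusted p = 3.2e-06). GUF1, a back-translocation GTPase, had −1.02 and −0.71 (adjusted p = 5.3e-05 and 0.00099). AFG3L2, an inner membrane protease subunit that processes MRPL32, had −0.89 and −0.80 (adjusted p = 8.6e-05 and 0.00023).

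Of the 11 nuclear regulators 3 fell and 0 rose in limma with doxorubicin in siNT cells, at an unadjusted p under 0.05 also (27.3% lower, beside 27.7% of all genes), and 4 fell and 2 rose in siMLK4 cells (36.4% and 18.2%, beside 27.7% and 30.2%). With siMLK4 3 were lower in vehicle and 1 with doxorubicin (27.3% and 9.09%, beside 13.0% and 12.1%), and 0 higher in limma (0 and 1 at an unadjusted p under 0.05). NRF1 fell with doxorubicin from 293.6, 322.9 and 325.6 reads to 96.9, 88.56 and 102.4 in siNT cells (−1.34 ± 0.12, adjusted p = 7.2e-07) and by 1.12 in siMLK4 cells (adjusted p = 3.3e-06). GABPA, the ETS subunit of GABP, had −0.03 in siNT cells and 0.34 in siMLK4 cells (adjusted p = 0.042, and 0.053 with the replicate block). The GABPA call also ended (0.052 to 0.16) without siNT vehicle replicate 2, siNT doxorubicin replicate 3, siMLK4 vehicle replicate 2 or 3 or any siMLK4 doxorubicin library. MYC had 4380, 3354 and 4191 reads with siNT and 1446, 1723 and 1815 with siMLK4 in vehicle (−1.23 ± 0.14, adjusted p = 3.5e-05), and with doxorubicin it was at 33.9% of siNT (−1.53, adjusted p = 7.7e-06). It fell with doxorubicin in siMLK4 cells (−0.50, adjusted p = 0.0075) and did not pass in siNT cells (−0.20, adjusted p = 0.23). The interaction for MYC did not pass either (−0.30, adjusted p = 0.55). Of 18 genes for transcription of mitochondrial DNA and maturation of its RNA, 6 fell and 3 rose with doxorubicin in siNT cells (33.3% and 16.7%, beside 27.7% and 29.6% of all genes), and 5 fell and 3 rose in siMLK4 cells (27.8% and 16.7%, beside 27.7% and 30.2%). With siMLK4 7 were lower and 1 higher in vehicle (38.9% and 5.56%, beside 13.0% and 12.7%), and 3 were lower and 1 higher with doxorubicin (16.7% and 5.56%, beside 12.1% and 12.7%). POLRMT, the mitochondrial RNA polymerase, fell in siNT cells (−0.54, adjusted p = 0.0011) and did not pass in siMLK4 cells (−0.26, adjusted p = 0.06). TFAM, which packages and activates mitochondrial DNA, did not pass in any of the 4 comparisons (−0.17 to −0.04). MTERF1, a terminator protein, was higher with siMLK4 (0.36 and 0.37, adjusted p = 0.02 and 0.019), which did not pass in vehicle without siNT replicate 1 or siMLK4 replicate 1 or 2 (0.067 to 0.078) or with only the groups compared (0.081), and with doxorubicin without siNT replicate 2 or 3 or siMLK4 replicate 1 or 2 (0.054 to 0.069).

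Of the 15 RNAs encoded in mitochondrial DNA, 2 rose in siNT and 3 in siMLK4 cells with doxorubicin, and 0 fell in limma. Of all genes 29.6% and 30.2% rose, so that both counts were below the background (13.3% in siNT cells). MT-RNR1, the small subunit rRNA, had 13164, 16736 and 17397 reads with siNT and vehicle and 26836, 18579 and 23518 with doxorubicin (0.54 ± 0.16, adjusted p = 0.011, or 0.062 without siNT doxorubicin replicate 1). It rose by 0.75 in siMLK4 cells (adjusted p = 0.0011). MT-RNR2, the large subunit rRNA, had 0.08 in siNT cells (adjusted p = 0.73) and rose by 0.61 in siMLK4 cells (adjusted p = 0.0085). Libraries were made from polyadenylated RNA, so these rRNA values cover the RNA that passed that selection. MT-ND6, a subunit of complex I, was higher with siMLK4 in vehicle (0.41, adjusted p = 0.016) and with doxorubicin (0.44, adjusted p = 0.013), and MT-ATP8, a subunit of ATP synthase, in vehicle (0.68, adjusted p = 0.045). The MT-ATP8 call ended (0.054 to 0.17) without any siNT vehicle library, siNT doxorubicin replicate 2 or 3, siMLK4 vehicle replicate 3 or siMLK4 doxorubicin replicate 1, and with only the groups compared (0.1). That of MT-ND6 ended in vehicle without siNT vehicle replicate 1 (0.067) or with only the groups compared (0.071), and with doxorubicin without replicate 2 of either doxorubicin group (0.053 and 0.06). The share of reads on these 15 genes varied within groups, from 1.74 to 3.66% in the siNT vehicle libraries. With siMLK4 and doxorubicin it was 3.84, 4.56 and 4.74%, above every library of the other groups. The cause of this was not tested.

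**Figure D5:**
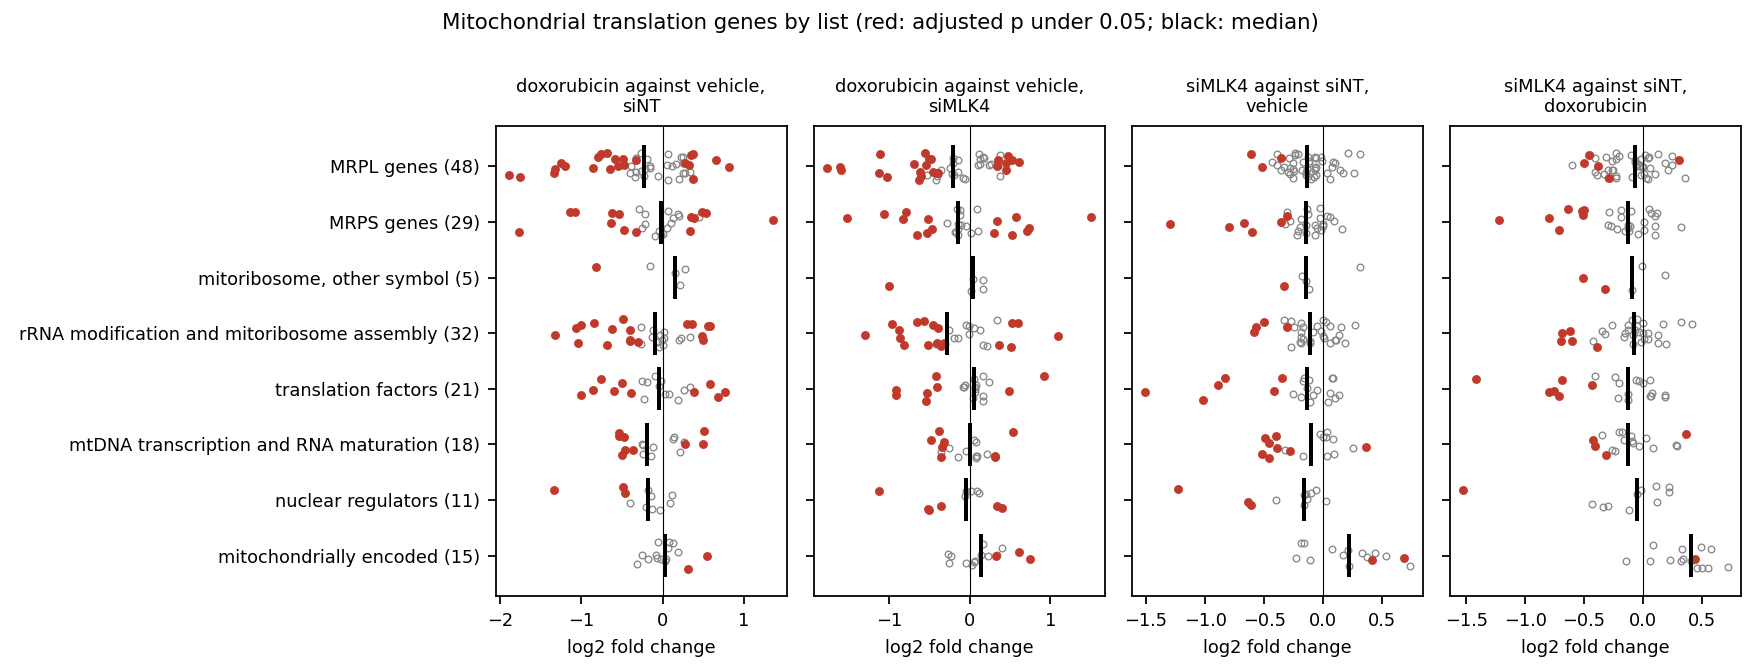
Log2 fold change (x axis) of each gene of the MRPL and MRPS groups and of the 6 pathway lists in the 4 comparisons, 1 point a gene, red at an adjusted p under 0.05, with a black line at the median of each list. No red point of the 15 mitochondrially encoded RNAs lies under 0. In the panels of siMLK4 against siNT, no red point of the 21 translation factors and related genes lies over 0.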

How the data were processed

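Poly(A)-selected RNA of 12 HCC1806 samples, 3 in each of 4 groups given by the sample labels, had been sequenced. According to the submitters' processing notes and the supplementary methods, trimming was done in Trimmomatic 0.39 and mapping in HISAT2, optical duplicates were discarded, and the authors assigned reads to genes by strand in HTSeq 0.6.0 and used DESeq2 1.26.0. The methods name GRCh38 and the labels hg19; the annotation version is not given in the sources used here. The deposited values are log2-scale output of a variance-stabilizing transformation, as read from the values. Inverting it gave whole reads (tolerance 0.05) for 100% of the values of each library, with size factors of 0.852 to 1.199. Normalized reads are these reads divided by the size factors. The lowest mean of any gene in its highest group was 10.67 normalized reads, so all 77 genes were already past a filter on low values.

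Limma 3.58.1 in R 4.3.3 (lmFit, eBayes with a variance trend) was fitted to the deposited values of all 12 libraries with 4 group means, without covariates. The Benjamini-Hochberg adjustment of p-values ran over all 17013 genes, and the call rules were an adjusted p under 0.05, or under 0.01 with a log2 fold change beyond 0.75 either way. The members and lists were chosen with earlier results of these data known, so lists are described by counts and medians and not tested. Named are, per comparison, the 4 members with the highest and the 4 with the lowest log2 fold change among those with an adjusted p under 0.05 and no overlap between the groups, fixed members by role, and 3 pathway genes in each direction. Alternatives were TMM scaling, library totals, the 13295 genes with 10 or more reads in each library, fits of only the groups compared, a replicate block, limma-voom, log2(normalized reads + 1), no variance trend and leaving out each library in turn. Gene positions and transcript lengths come from GENCODE release 44 on GRCh38, promoters from RefSeq.

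The replicate numbers come from the labels. Libraries with the same number deviated together (correlation over 0.1 in every pair) for doxorubicin in siNT cells (0.46, 0.11 and 0.20). They also did for the siRNAs with doxorubicin (0.19, 0.52 and 0.56), but not in the other comparisons (lowest −0.08 and −0.72). This does not establish that the libraries were paired. The main fit took no account of the numbers, and the replicate block was an alternative to it. On simulated data the test called 80% of changes of 1 log2 unit and 99% of changes of 2 for doxorubicin in siNT cells. It also called 13 of 16813 unchanged genes. In that simulation genes varied independently, without shifts shared across a library. Few genes were changed (100 of 17013 at each size), whereas many more were called in the data. The rates in the data may therefore differ.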

Additional observations from a re-analysis of the deposited data

How the results depend on the processing

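Of the counts, medians and ratios reported, 746 values under the alternatives stayed within the limits set for them and 61 moved. Of the values of named genes, 1903 kept their direction and their side of the threshold, 113 kept their direction but no longer passed, and 0 reversed. Library totals in place of the size factors moved the family's counts with doxorubicin to 26 higher in siNT cells (median 0.07) and 22 higher in siMLK4 cells (median 0.01), and those with siMLK4 to 5 lower and 1 higher in vehicle and 4 higher with doxorubicin, with 1 gene past both thresholds in each. In the pathway lists they gave 30 higher and 16 lower, 25 higher and 16 lower, 12 lower in vehicle and 6 higher with doxorubicin, of 102 genes. Of all genes that scaling called 39.5% higher and 18.2% lower, 38.7% higher and 20.3% lower, 8.16% lower and 17.4% higher in the same places. The slope on length as a covariate, chosen after seeing the data, gave 40 lower with doxorubicin in siNT cells, 27 lower and 1 higher with siMLK4 in vehicle, 27 lower and 4 higher with siMLK4 in doxorubicin and 1 gene lower in the interaction. In the pathway lists it gave 5 higher in vehicle, 10 higher and 27 lower with doxorubicin, and 2 higher and 2 lower in the interaction, beside 27 lower in vehicle. That fit called more of all genes as well, 34.0% lower with doxorubicin in siNT cells, 20.6% lower and 19.9% higher with siMLK4 in vehicle, 19.5% lower and 20.7% higher with siMLK4 in doxorubicin, and 3.71% lower and 4.6% higher in the interaction. Fits of only the groups compared gave 2 members higher with siMLK4 in doxorubicin, and in the pathway lists 0 higher and 12 lower in vehicle and 5 higher with doxorubicin. The MRPL minus MRPS median was −0.16 in siNT cells with the 2 genes reassigned, and −0.04 in the interaction among genes with at least 10 reads. Sums per length gave ratios of 0.956 and 0.960 with doxorubicin, against 1.07 and 1.06 for the shares of reads. The replicate block gave 24 lower and 13 higher, 24 lower and 14 higher, 8 lower and 0 higher (limma), and 10 lower and 1 higher in the 4 comparisons. It ended only the calls of named genes given beside them in the text (MRPS6, MRPS30, DAP3 and GABPA). Leaving out 1 library at a time gave, with doxorubicin, 7 to 19 members higher, 20 to 29 lower, medians of −0.24 to −0.05 and MRPL minus MRPS differences of −0.24 to −0.13 in siNT cells, and 9 to 18 higher, 17 to 28 lower, medians of −0.26 to −0.05 and differences of −0.15 to −0.01 in siMLK4 cells. With siMLK4 it gave in vehicle 6 to 12 lower and medians of −0.27 to −0.02 (pathway lists 13 to 21 lower, 0 to 3 higher). With doxorubicin it gave 6 to 13 lower, 0 to 2 higher, 1 to 3 past both thresholds, medians of −0.18 to −0.06 and differences of −0.01 to 0.10 (pathway lists 13 to 19 lower, 0 to 3 higher). In the interaction medians ran from −0.05 to 0.13 and differences from −0.04 to 0.04. For fits without 1 library, with the replicate block, of only the groups compared and by limma-voom, the shares of all genes called are not given. Whether the counts in those fits moved with those of all genes was not tested. The cause of these moves was not tested either. Few reads per library were counted for MRPS24 (4 to 14), MRPL2 (8 to 37) and MRPS28 (8 to 40), of which MRPS24 and MRPL2 passed in no comparison. Whether depth or the stretches shared with other genes kept these counts low was not tested.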
